A study of Mus musculus with 4 samples.

Results

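The platelet-derived growth factor (PDGF) system was followed through its receptor genes, Pdgfra and Pdgfrb, and its ligand genes, Pdgfa, Pdgfb, Pdgfc and Pdgfd. These 6 genes, of 22180 named on the arrays, were chosen by name, with earlier results of the same arrays in view, and each was read from its only probe set with a single gene symbol. The cells were of CT26, a line from a mouse colon carcinoma, and 4 Affymetrix Mouse Gene 2.0 ST arrays were run, 1 per group. CT26 cells received either the solvent DMSO for 24 h or, for the same time, Senexin B at 5 µM. This compound inhibits CDK8 and its paralogue CDK19, the kinases of the Mediator complex. The other arrays held RNA from CT26-pLKO.1, the line with the lentiviral hairpin vector, and from CT26-shCDK8, the line with the CDK8 hairpin. All 4 groups share the CT26 background. The hairpin's sequence, and whether a line is 1 clone or a pool, were not given in the labels. No group has a replicate, so no difference below was tested and each is the gap between 2 arrays on the log2 scale.

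PDGF ligands are secreted dimers that bind receptor tyrosine kinases on mesenchymal cells such as fibroblasts, pericytes and smooth muscle cells. Ligand binding pairs the receptors, which phosphorylate each other and recruit phosphoinositide 3-kinase, Src kinases, phospholipase C-gamma and the Ras pathway. The A and C chains act mainly on the alpha receptor, the B chain on both receptors and the D chain mainly on the beta receptor. C and D chains are secreted in a latent form that proteases must cut. In tumours the receptors are best known from stromal cells.

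Promoter sequence is shown for the receptor and the ligand that stood higher in both the Senexin B and the shCDK8 comparison, Pdgfra and Pdgfc. Each line gives the 250 bases before the listed start on the plus strand of GRCm38.p6, from RefSeq, at chr5:75152001-75152250 for Pdgfra and chr3:81036166-81036415 for Pdgfc. Capitals mark the single match to any of 5 motifs searched on both strands.
Pdgfra: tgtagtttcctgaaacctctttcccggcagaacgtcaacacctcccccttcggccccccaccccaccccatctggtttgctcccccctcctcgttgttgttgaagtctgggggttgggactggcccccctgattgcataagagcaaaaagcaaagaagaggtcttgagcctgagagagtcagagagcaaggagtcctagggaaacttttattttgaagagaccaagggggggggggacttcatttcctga
Pdgfc: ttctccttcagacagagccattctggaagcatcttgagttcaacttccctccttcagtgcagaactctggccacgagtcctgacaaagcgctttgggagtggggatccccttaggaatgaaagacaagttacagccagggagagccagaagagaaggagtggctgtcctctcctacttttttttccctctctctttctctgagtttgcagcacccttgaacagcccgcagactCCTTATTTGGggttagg

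The match in Pdgfc is a CArG box, the element bound by serum response factor, and begins 17 bases before the start. The other motifs searched were the TATA box (TATAAA), the GC box (GGGCGG), the AP-1 site (TGANTCA) and the TCF/LEF site (CTTTGA), and matches of different motifs could overlap but did not in the windows of the 4 ligand and receptor genes that had one. Among 32851 windows of this length in the table, a CArG box was found in 1.47%, the TATA box in 12.4%, the GC box in 32.7%, the AP-1 site in 6.75% and the TCF/LEF site in 13.8%. None of the 5 was in the Pdgfra window, which says only that these letters are not there. That window lies inside the annotated gene, whose longest span begins at position 75151322, and both windows of Pdgfa lie inside its gene as well. The Pdgfd window runs past the first base of its gene span, at 6168363. Pdgfa, with 2 listed starts, had 1 GC box before 1 start and 2 before the other. Pdgfd had a match to TATAAA 160 bases before its listed start, which lies past the first base of the gene span. The match is nearer to that first base. The G and C content was 54.4% for Pdgfra and 50.8% for Pdgfc, beside a median of 52.4% over all windows, and 66.4% and 72.4% for the windows of Pdgfa. Pdgfb and Pdgfrb were not matched in the promoter table.

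The arrays had close medians, between 5.99 and 6.04 over 41345 probe sets. Expressed genes were those with at least 1 of their 4 values at or above 5.98, the 40th percentile over genes and arrays, and 14272 passed. Of the PDGF genes 5 were expressed on all 4 arrays, and Pdgfd lay under the limit on all 4. Cdk8, the target of the hairpin, stood at 10.69 with DMSO, 10.58 with Senexin B, 10.79 in pLKO.1 and 9.07 in shCDK8. It was thus lowest in the line labelled for its knockdown, 3.31-fold below pLKO.1, while Cdk19 lay between 8.17 and 8.36.

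Pdgfra encodes the alpha receptor, which takes up A, B and C chains. Its log2 value was 9.09 with DMSO, 10.33 with Senexin B, 9.23 in pLKO.1 and 9.62 in shCDK8. The Senexin B array stood above the other 3, and shCDK8 came second. Senexin B minus DMSO was 1.24, a 2.37-fold difference, which placed Pdgfra at rank 57 of the expressed genes counted from the highest. Against the pLKO.1 array the same Senexin B value was 1.10 higher. For shCDK8 minus pLKO.1 the difference was 0.39, and for shCDK8 minus DMSO it was 0.53. The gap between the controls, pLKO.1 minus DMSO, was 0.14 for this gene. A vector line and solvent-treated cells are not replicates of each other, so such a gap does not measure the spread between repeat arrays.

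Pdgfrb encodes the beta receptor, the receptor through which the B chain recruits pericytes to vessels. Its value was 9.12 with DMSO, 10.62 with Senexin B, 9.30 in pLKO.1 and 8.05 in shCDK8. The controls were close to each other, at a gap of 0.17, with the inhibitor array above both and the hairpin array below both. Senexin B minus DMSO was 1.49, a 2.82-fold difference at rank 32 from the highest. For shCDK8 minus pLKO.1 it was -1.25, a 2.38-fold lower value at rank 19 from the lowest. Both differences stayed past 2-fold when the control arrays were exchanged, at 1.32 for Senexin B minus pLKO.1 and -1.07 for shCDK8 minus DMSO. Of the 6 genes Pdgfrb had the widest range over the 4 arrays, 2.57.

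The receptors therefore stood alike in one comparison and apart in the other. Relative to Pdgfra, Pdgfrb was 0.25 higher in Senexin B minus DMSO and 0.032 higher in pLKO.1 minus DMSO. In shCDK8 minus pLKO.1 it was at -1.64 relative to Pdgfra, a 3.11-fold shift of one receptor against the other. With DMSO as the reference for shCDK8 this shift was -1.61.

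**Figure D1:**
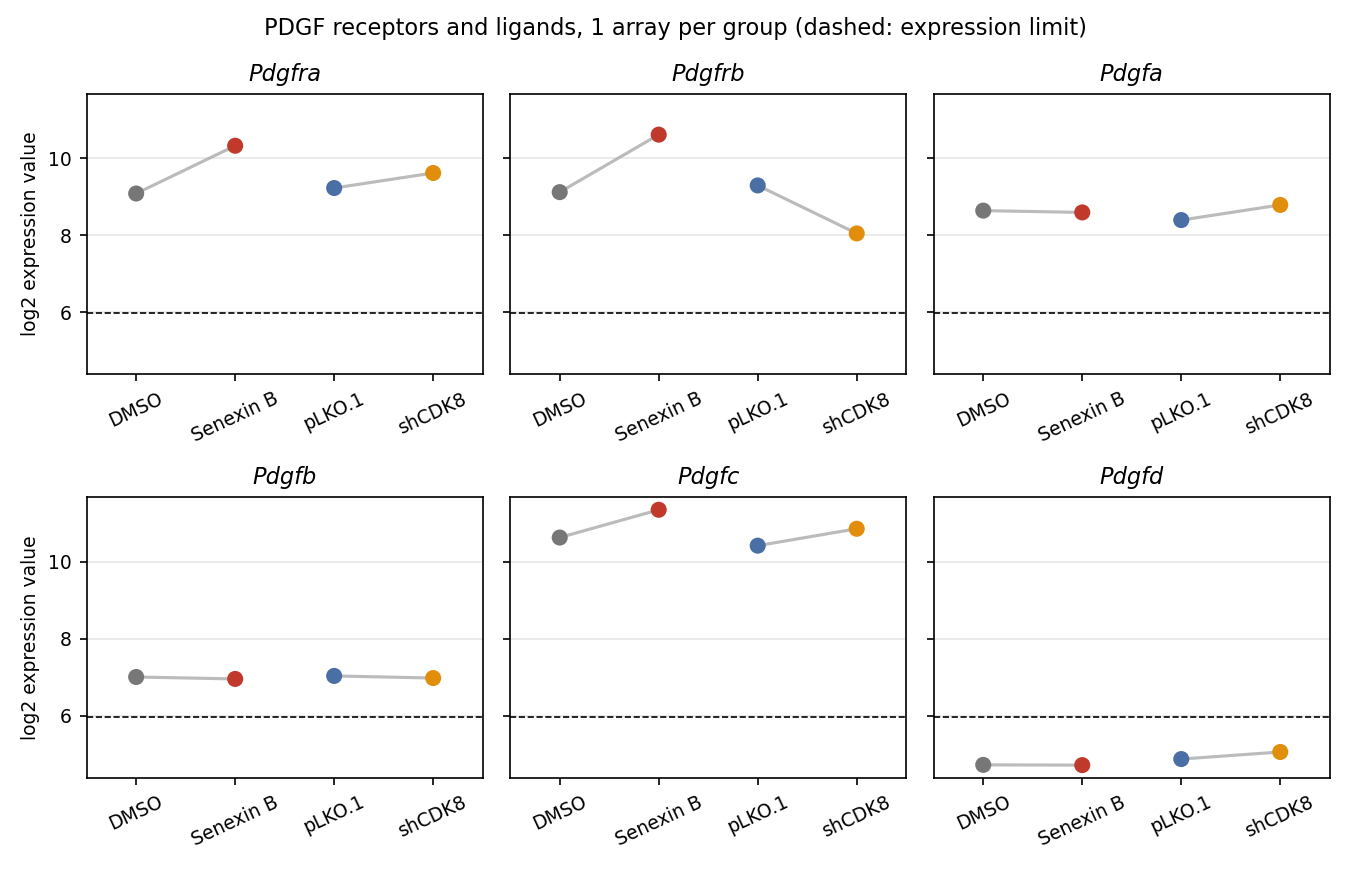
Log2 expression value (vertical axis) of each of the 6 genes on the 4 arrays (horizontal axis, 1 point per array, no replicates); grey lines join each treated or hairpin array to its own control, and the dashed line is the expression limit of 5.98. Pdgfrb was highest with Senexin B (10.62) and lowest in shCDK8 (8.05), Pdgfb stayed within 0.078, Pdgfd lay under the limit throughout, and levels of different genes are not comparable because their probes differ.

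Among the ligand genes Pdgfc showed the widest range, 0.93. Its product, the C chain, is a ligand of the alpha receptor that needs cleavage before it binds. The values were 10.63 with DMSO, 11.36 with Senexin B, 10.42 in pLKO.1 and 10.86 in shCDK8. The arrays of both controls lay lowest, with pLKO.1 under DMSO by 0.21. Senexin B minus DMSO was 0.72, a 1.65-fold difference, and it was 0.93 against pLKO.1. For shCDK8 the difference was 0.44 against pLKO.1 and 0.23 against DMSO, the latter close in size to the gap between the controls.

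Pdgfa encodes the A chain, the classical ligand of the alpha receptor. Its value was 8.64 with DMSO, 8.60 with Senexin B, 8.40 in pLKO.1 and 8.79 in shCDK8. The pLKO.1 array was the lowest of the 4, so the sign of the Senexin B difference depended on the reference, at -0.047 against DMSO and 0.20 against pLKO.1. The shCDK8 array was 0.39 above pLKO.1 and 0.15 above DMSO, while the controls differed by -0.25.

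Pdgfb, the gene of the B chain and the cellular counterpart of the sis oncogene, was the flattest of the 6. It was at 7.01 with DMSO, 6.96 with Senexin B, 7.04 in pLKO.1 and 6.98 in shCDK8, a range of 0.078. Pdgfd, the gene of the D chain, was at 4.72 with DMSO, 4.72 with Senexin B, 4.88 in pLKO.1 and 5.06 in shCDK8. With all its values under the expression limit, its order over the arrays carries no direction. The ligand differences were unequal in size, since Pdgfc relative to Pdgfa was at 0.77 for Senexin B minus DMSO but at 0.046 for shCDK8 minus pLKO.1.

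Counted over the 5 expressed genes, 2 were at least 2-fold higher with Senexin B than with DMSO, the receptors, and 0 were lower. The same threshold was passed upward by 0.687% of the 14272 expressed genes and downward by 0.252%. At 1.5-fold, Pdgfc joined the receptors to make 3, where 2.35% of the expressed genes were that much higher. In shCDK8 minus pLKO.1, 1 of the 5 was at least 2-fold lower, Pdgfrb, beside 0.322% of the expressed genes, and 0 were 2-fold higher, beside 0.196%. Between the controls 0 of the 5 passed 2-fold in either direction, beside 0.0981%. With the control arrays exchanged, the receptors again passed 2-fold upward with Senexin B, beside 0.708% of the expressed genes, and Pdgfrb again passed it downward in shCDK8, beside 0.329%. The median over the 5 was 0.72 for Senexin B minus DMSO, where all expressed genes had -0.028, and 0.39 for shCDK8 minus pLKO.1, where they had 0.0038. The first was 0.36 with Pdgfd included, and the second was 0.15 with DMSO as the reference. Because the genes were picked with these results known, nothing is read from their counts against the background.

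**Figure D2:**
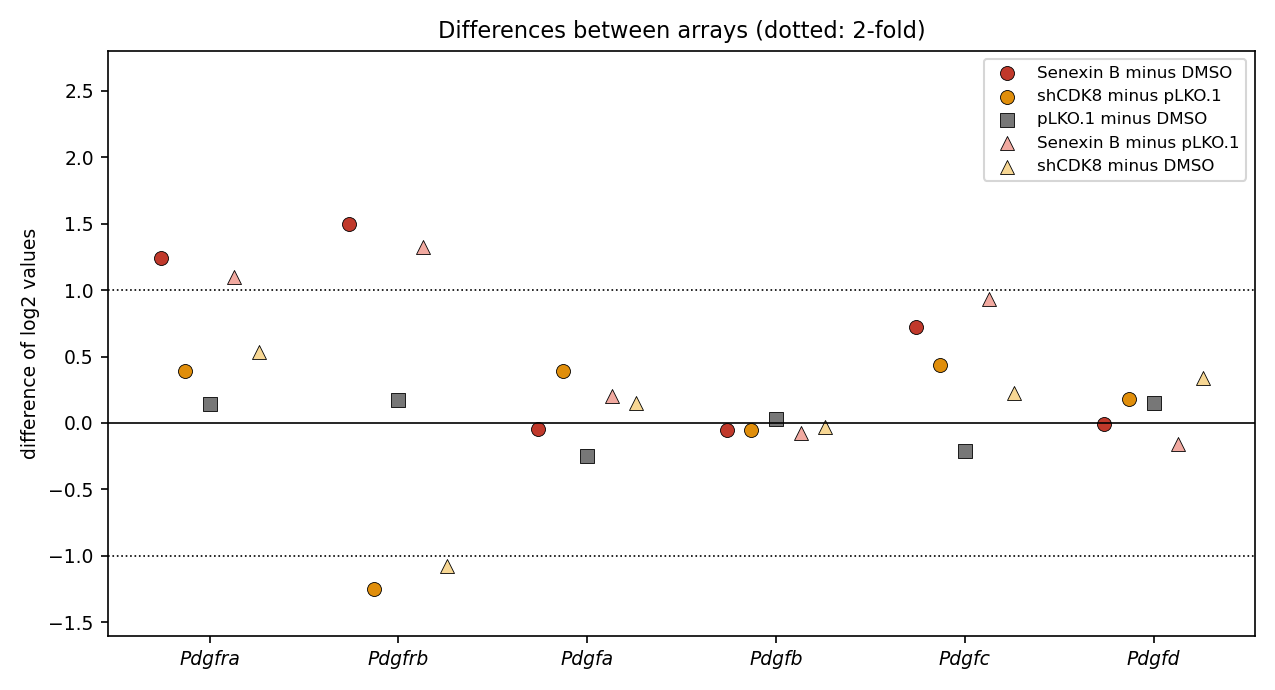
Difference of log2 values (vertical axis) for each gene (horizontal axis): circles use the study's own control, squares are control minus control, and triangles exchange the control arrays; dotted lines mark 2-fold. The Senexin B points of Pdgfra (1.24 and 1.10) and Pdgfrb (1.49 and 1.32) lie above the upper line, and both shCDK8 points of Pdgfrb (-1.25 and -1.07) lie below the lower one.

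**Figure D3:**
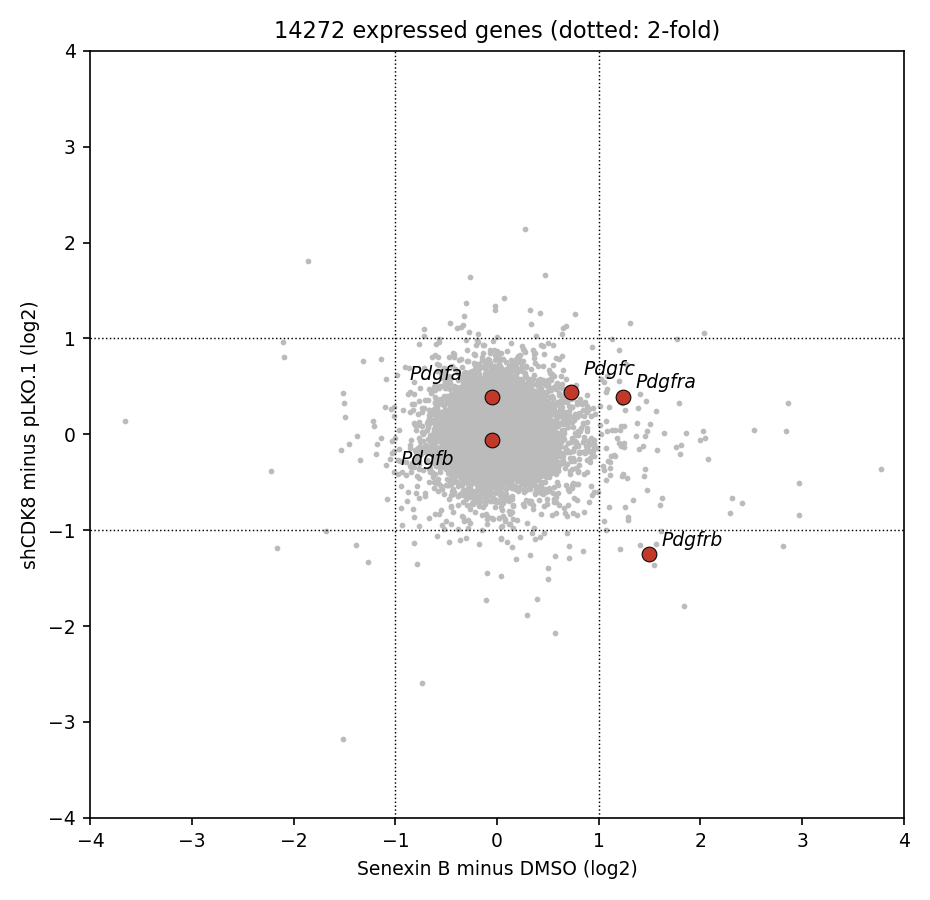
Senexin B minus DMSO (horizontal) against shCDK8 minus pLKO.1 (vertical), in log2, for 14272 expressed genes (grey) and the 5 expressed PDGF genes (red); dotted lines mark 2-fold. The comparisons share no array; Pdgfra (1.24, 0.39) and Pdgfc (0.72, 0.44) lie in the upper right, and Pdgfrb (1.49, -1.25) in the lower right.

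The genes whose pattern over the 4 arrays was most like that of each receptor were found by Euclidean distance between log2 values centred on each gene's mean, among the other 14271 expressed genes. Nearest to Pdgfrb was Adgrg6, an adhesion G protein-coupled receptor, at a distance of 0.11. It was 1.56 higher in Senexin B minus DMSO and at -1.14 in shCDK8 minus pLKO.1, with the shCDK8 value, 5.62, under the expression limit. The next were the bradykinin receptor gene Bdkrb2 (distance 0.29), the peroxisomal transporter gene Abcd2 (0.45), the GTPase-activating protein gene Arhgap28 (0.48) and the G protein regulator gene Rgs2 (0.50). These 4 were between 1.10 and 1.62 higher with Senexin B and between -0.90 and -0.66 in shCDK8, so none of them was 2-fold lower there. Rgs2 reached the limit on the Senexin B array alone, and Arhgap28 on 3 arrays.

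The nearest genes to Pdgfra, whose range over the arrays was 1.24, were Vmn2r33 (distance 0.12), the receptor gene Gprc5b (0.12), the transcription factor gene Glis3 (0.19), Fstl1, a secreted follistatin-like protein (0.21), and the pseudokinase gene Trib2 (0.21). All 5 were at least 2-fold higher with Senexin B, from 1.01 for Glis3 to 1.20 for Vmn2r33. In shCDK8 minus pLKO.1 they lay between 0.29 for Gprc5b and 0.60 for Fstl1. Vmn2r33, a vomeronasal receptor gene, reached the limit on the Senexin B array only, at 6.02. It thus passed the filter only through the array where it is high, and its size is uncertain. Both sets of neighbours rest on 4 arrays and give likeness alone. They were picked on these same values, so differences near those of the receptor follow from the picking.

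**Figure D4:**
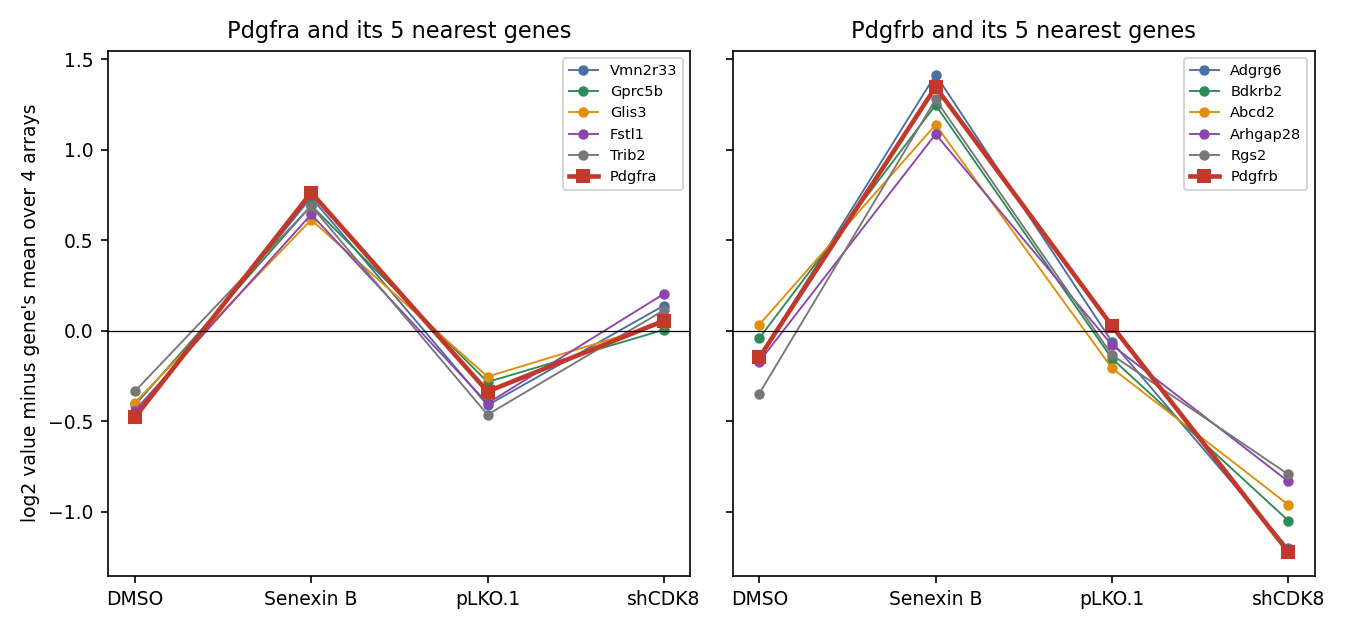
Log2 value minus the gene's own mean over the 4 arrays (vertical axis) on each array (horizontal axis) for Pdgfra (left) and Pdgfrb (right), in red, with the 5 expressed genes nearest to each; lines only join the points of a gene. All genes peak on the Senexin B array, while the shCDK8 array is near the mean on the left and the lowest on the right.

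Both receptor genes sit beside related receptor genes in the RefSeq order of GRCm38.p6. Pdgfra is followed by Kit, the stem cell factor receptor, and Kdr, a VEGF receptor. Kit was between 6.18 and 6.42 and Kdr between 5.92 and 6.16 on the 4 arrays, close to the limit of 5.98. Their differences for Senexin B minus DMSO were 0.10 and 0.15, beside 1.24 for Pdgfra. Pdgfrb is followed by Csf1r, the macrophage colony-stimulating factor receptor, which lay under the limit on every array, between 5.42 and 5.88. The next gene, Hmgxb3, was expressed and differed by -0.11 with Senexin B and -0.15 in shCDK8. Among the ligand genes' neighbours Prkar1b, next to Pdgfa, was 0.98 higher in shCDK8 than in pLKO.1, with pLKO.1 minus DMSO at -0.25. Ctso, next to Pdgfc, was 0.36 higher with Senexin B and 0.35 higher in shCDK8, with a gap of 0.35 between the controls. With Senexin B, Fam20c, near Pdgfa, was 0.61 higher and Casp4, near Pdgfd, 0.53 higher, both further than Ctso.

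Other members of this receptor group and their ligands, with the VEGF family, were 16 listed symbols (Figf being an older one for Vegfd), of which 14 were measured and 11 expressed. Of all expressed genes 0.687% were 2-fold higher and 0.252% 2-fold lower with Senexin B, and 0.196% and 0.322% in shCDK8. With shares this low, a count of 0 in lists of this size, here and below, sets no list apart. Of the 11 expressed, 0 were 2-fold apart with Senexin B, and 1 was 2-fold higher in shCDK8. That gene was Flt1, a VEGF receptor, at 7.73 in pLKO.1 and 8.79 in shCDK8, a difference of 1.07, and of 0.94 against DMSO. The ligand gene Vegfa was 0.86 higher with Senexin B and Vegfd 0.78. The list medians were 0.028 and 0.18, Senexin B first. Of 43 other receptor tyrosine kinases 41 were measured and 26 expressed, and 0 of the 26 passed 2-fold in either comparison. The gene furthest up with Senexin B was Fgfr1, a fibroblast growth factor receptor, at 10.03 with DMSO and 10.91 with Senexin B (0.88). Mertk, a receptor for dying cells, went opposite ways, at -0.87 with Senexin B and 0.69 in shCDK8. Ror2 was 0.67 higher and Met at -0.53 with Senexin B. Their medians were 0.059 and -0.012. Epha1 (0.36), Fgfr2 (0.35) and Ddr1 (0.22) were the next furthest in shCDK8, and Fgfr2 reached the limit on 1 array.

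Genes that process, bind or present the ligands numbered 12, of which 10 were expressed and 0 were 2-fold apart in either comparison. With Senexin B 8 of the 10 lay below 0, where 7865 of all 14272 expressed genes did, with a median of -0.16. In shCDK8 6 of the 10 lay below 0, where 7009 of all expressed genes did, with a median of -0.15. Plat, whose product cleaves the C chain, was at -0.43 with Senexin B and 0.40 in shCDK8. Plau, whose product cleaves the D chain, was at -0.21 and 0.67. The neuropilin gene Nrp1, a co-receptor, was lower in both, at -0.63 and -0.45, while the thrombospondin gene Thbs1 was at 0.74 and 0.29 and the neuropilin gene Nrp2 at 0.32 and -0.20. Pcsk5, a proprotein convertase, was at -0.42 in shCDK8, but it reached the expression limit on the control arrays only and lay under it in shCDK8.

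Signal transducers were 36 listed genes, of which 29 were measured and 28 expressed. With Senexin B 17 of the 28 lay below 0, where 7865 of all 14272 expressed genes did. Of the 28, 1 was 2-fold lower and 0 were 2-fold higher. The 1 was Pik3cb, a catalytic subunit of phosphoinositide 3-kinase. Its values were 8.92 with DMSO, 7.74 with Senexin B, 8.62 in pLKO.1 and 8.51 in shCDK8. The Senexin B array was the lowest, at -1.18 against DMSO but only -0.87, under 2-fold, against pLKO.1. Pik3r1, the regulatory subunit that docks on the receptors, stood 0.66 higher with Senexin B, the Src family gene Fyn 0.43 higher and Src at -0.35. In shCDK8 0 of the 28 were 2-fold apart and all lay between -0.24 and 0.24. The medians were -0.085 and 0.036.

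Negative regulators lay below 0 more often than above it in both comparisons. Of 20 expressed among 22 listed, 16 were below 0 with Senexin B and 14 in shCDK8, with medians of -0.15 and -0.16, and 0 passed 2-fold in either. Of all expressed genes 7865 of 14272 were below 0 with Senexin B and 7009 in shCDK8. Dusp5, a phosphatase for ERK that ERK itself induces, was at 8.20 with DMSO and 7.21 with Senexin B (-0.99, or -1.13 and so past 2-fold against pLKO.1), and it was 0.62 higher in shCDK8 than in pLKO.1. Spry2, a feedback inhibitor of receptor tyrosine kinases, had the same signs, at -0.59 and 0.81. Rasa1, which switches Ras off and binds the beta receptor, was at -0.52 with Senexin B, and the ubiquitin ligase gene Cbl at -0.48. In shCDK8 the receptor phosphatase gene Ptprj, whose product removes phosphate from the beta receptor, was at 7.43 against 8.36 in pLKO.1 (-0.93), and Dusp6 was at -0.35.

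Genes induced by serum or PDGF in fibroblasts were 28, of which 26 were measured and all 26 expressed. With Senexin B 1 was 2-fold higher and 1 was 2-fold lower, and the median was -0.10. The higher one was Ccl7, a chemokine gene, at 8.88 with DMSO and 11.73 with Senexin B, a difference of 2.84. The lower one was Egr1, an immediate-early transcription factor gene. It was at 8.53 with DMSO, 7.18 with Senexin B, 8.87 in pLKO.1 and 8.60 in shCDK8, so the Senexin B array lay below the other 3, at -1.35 against DMSO. Egr2 was 0.90 higher and the chemokine gene Ccl2 0.92 higher on the same array, and against pLKO.1 Ccl2 was 1.36 higher. In shCDK8 0 of the 26 were 2-fold apart and the median was 0.040, with Timp1 at -0.78, Ccn2 at -0.74, Ccl2 at -0.53 and Ier3 at -0.50. Timp1 was also lower with Senexin B, at -0.83.

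**Figure D5:**
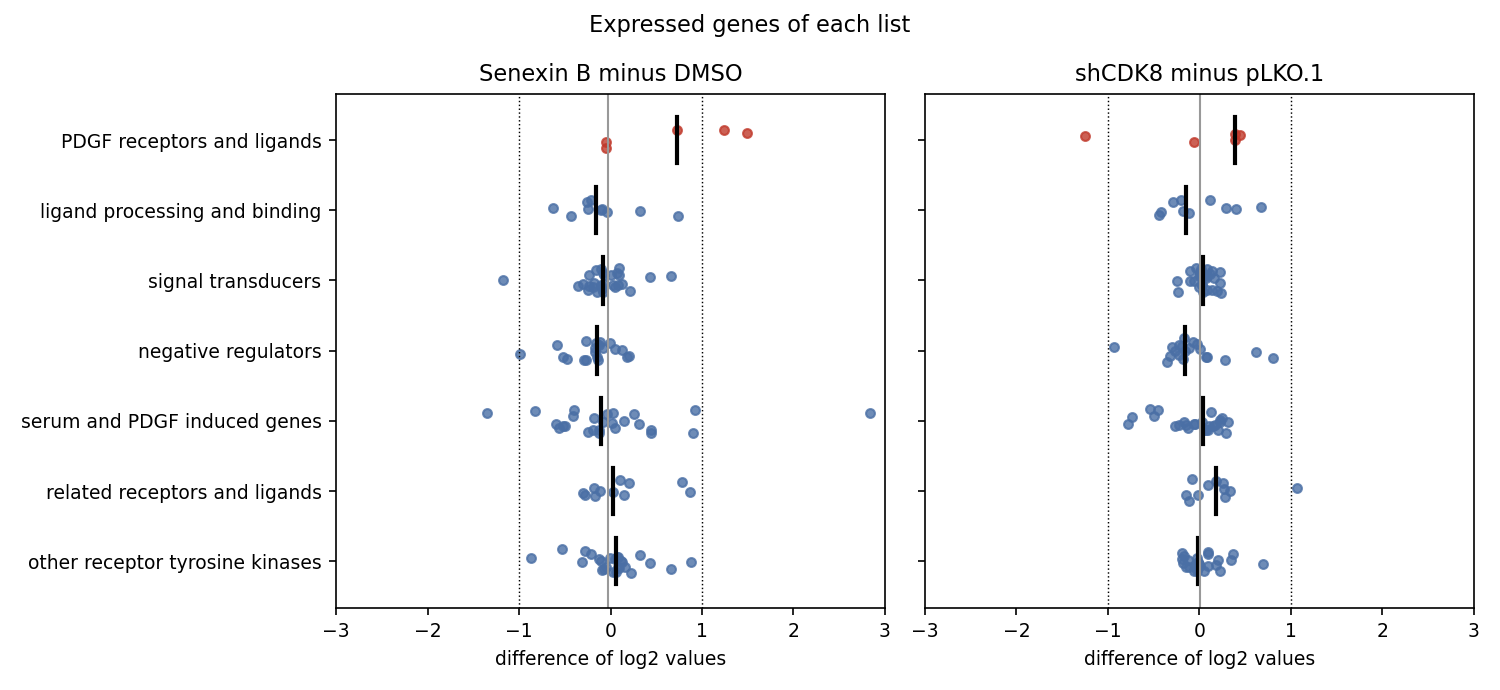
Difference of log2 values (horizontal axis) of the expressed genes of each list (vertical axis, 1 point per gene), for Senexin B minus DMSO (left) and shCDK8 minus pLKO.1 (right); black bars are list medians, the grey line is the median of all expressed genes, dotted lines mark 2-fold. The PDGF genes (red, chosen with these results known) have medians of 0.72 and 0.39, and the 6 pathway lists drawn in blue have medians between -0.16 and 0.18.

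Since PDGF receptors mark mesenchymal cells, markers of the cell types a culture could hold were read on the same arrays. In these bulk cultures a different share of cells and a different amount of RNA per cell cannot be told apart. Of 10 fibroblast markers 8 were expressed, and their summed linear level over all 10 was 13444 with DMSO, 17416 with Senexin B, 13878 in pLKO.1 and 13504 in shCDK8. Such sums, here and below, follow the brightest probe sets and include genes under the limit, so they can differ from the counts. Of the 8 expressed, Dcn was 2.29 higher with Senexin B (1.71 against pLKO.1). In shCDK8 this gene was at -0.82 against pLKO.1 but only -0.24 against DMSO, since pLKO.1 minus DMSO was 0.58. Col3a1 was 0.57 higher with Senexin B and at -1.27 in shCDK8, while Lum and Postn lay under the limit on all arrays. With Senexin B 7 of the 8 lay above 0, where 6396 of all 14272 expressed genes did, and the median was 0.21. The SD of 0.29 over all expressed genes describes single genes and not the median of a list. Fap was at -0.46, but it reached the limit on the pLKO.1 array only. In shCDK8 2 of the 8 were above 0 and 6 below it, where 7009 of all expressed genes were below, and the median was -0.25. Without Dcn the summed levels were 12929, 14898, 13109 and 13067, Senexin B still being the highest. Of 12 pericyte and smooth muscle markers 10 were expressed, with summed levels of 1231, 1739, 1288 and 1647 in the same order. With Senexin B 6 of the 10 were above 0 and 4 below it (median 0.18), where 6396 of all 14272 expressed genes were above. In shCDK8 7 were above and 3 below (median 0.093), where 7254 of all expressed genes were above. The pericyte gene Rgs5 and Tagln lay under the limit, Anpep was 1.38 higher with Senexin B, and Acta2 was 0.55 higher with Senexin B and 0.93 higher in shCDK8. Without Anpep and Acta2 the summed levels were 708, 755, 758 and 769.9. The part of these genes in the receptor differences was not tested.

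Markers of blood cells and vessels were mostly under the limit. Of 7 measured leukocyte markers Cd68 alone was expressed, with Ptprc, Cd3e, Itgam, Adgre1, Csf1r and Lyz2 under it, and the summed level was between 678 and 777. Of 8 endothelial markers 4 were expressed, with Tek, Emcn, Cldn5 and Erg under the limit and a summed level between 374 and 448. For a colon carcinoma line the epithelial markers were incomplete. Of 10, Epcam, Krt19, Vil1 and Lgr5 lay under the limit on all arrays, and the 6 expressed were Cdh1, Krt8, Krt18, Krt20, Cdx1 and Cdx2. Their summed level over all 10 was 1101 with DMSO, 1094 with Senexin B, 915 in pLKO.1 and 807 in shCDK8. In shCDK8 minus pLKO.1 5 of the 6 lay above 0, where 7254 of all 14272 expressed genes did, with a median of 0.11. Of these 5, Krt8 and Krt18 hardly differed, at 0.0040 and 0.036. Krt20 alone was lower, at -1.44, and for this gene pLKO.1 minus DMSO was already -0.69. Without Krt20 the summed levels were 679, 700.4, 653 and 710.4 in the same order, a leaving-out chosen after seeing the data, as were those of Dcn, Anpep and Acta2.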

How the data were processed

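Total RNA from 4 CT26 cultures was labelled with biotin and hybridised to 1 array each. The deposited values are log2 expression values made with RMA in Affymetrix Expression Console, per the submitters' processing notes, which give no version or setting. RMA removes shifts common to all genes and compresses differences near background, and the number of arrays limits the precision.

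Gene names came from the platform annotation, in which 23521 of 41345 probe sets had 1 gene symbol, 1814 several and 16010 none. For genes with several probe sets the one with the highest mean was kept. All 6 PDGF genes matched the RefSeq table of GRCm38.p6. With 1 array per group there was no test and no p-value; differences of log2 values were taken and counted at 2-fold, in Python 3.11.15 with pandas 2.3.3. The procedure was tested on simulated data, which checks the calculation and not how reliable differences between single arrays are. The members and the lists were chosen with earlier results of these data known. Named are the 6 genes, Cdk8 and Cdk19, up to 4 expressed genes per pathway list and comparison with the largest absolute difference, the 5 genes nearest to each member with a range of at least 1, and neighbours in the RefSeq order; marker genes and some neighbours were chosen after their values were seen. Alternatives were other filters, normalizations, thresholds, probe set rules, a floor and the other control array. Some listed genes are not reported here.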

Additional observations from a re-analysis of the deposited data

Results flagged for a closer look

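Pdgfrb stood 2-fold apart in opposite directions under the inhibitor and the hairpin, at 1.49 for Senexin B minus DMSO but -1.25 for shCDK8 minus pLKO.1. With 1 array on each side the difference between these effects was not tested. The fibroblast marker list had medians of 0.21 and -0.25 in the same comparisons, and of -0.15 for shCDK8 minus DMSO. Its summed level was 13504 in shCDK8, against 13878 in pLKO.1 and 13444 with DMSO. Pdgfra, the other receptor, was 0.39 higher in shCDK8 minus pLKO.1. The part of the fibroblast markers in the result was not tested.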

How the results depend on the processing

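No paired analysis was possible because each group has 1 array. With the other control as reference, Senexin B gave 1.10 for Pdgfra, 1.32 for Pdgfrb and a median of 0.93 over the expressed members, and shCDK8 gave 0.53, -1.07 and 0.15. The median was 0.36 (Senexin B) and 0.29 (shCDK8) with no filter, and 0.98 for Senexin B with the 60th percentile filter. At 3-fold 0 members were called in either comparison, since the largest difference, Pdgfrb with Senexin B, was 2.82-fold. Among the 7 alternatives that give differences, the filters, the floor and the probe set rule could not alter the called differences. Repeated quantile normalization, removal of a trend with level and the other control could, and no called difference changed sign under them. Over these, Pdgfra ranged from 1.10 to 1.33 and Pdgfrb from 1.32 to 1.58 with Senexin B, and Pdgfrb from -1.26 to -1.07 in shCDK8. The mean of probe sets changes nothing here, since each member has 1. Values near the expression limit, as for Pdgfd, have no order.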
